A study of Rattus norvegicus albus with 6 samples.

Results

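Glycolysis and hypoxia response genes were followed in rat hepatic stellate cells, the vitamin A-storing cells of the liver that become matrix-producing myofibroblasts in fibrosis. The set was a list of 36 genes, chosen with earlier results of these data known and matched by symbol. It held transporters of glucose and lactate, enzymes of glycolysis, kinases that regulate glycolysis, and genes of oxygen sensing or induced by low oxygen. A gene was included where a probe set carried exactly its symbol, and of several such probe sets the brightest on average was taken. This gave 35 of the 36 genes, out of 14322 named genes on the array. Hk1, which encodes hexokinase 1, had no probe set under that symbol alone and was not analysed here.

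The study holds 6 whole-transcript arrays, 1 per group. Primary stellate cells were cultured for 7 days on plastic with 10% serum in low glucose medium before any treatment. Cells of the group Ad.DKK-1 were infected with an adenovirus that expresses DKK-1, an extracellular inhibitor of Wnt co-receptors, and cells of the group Ad.GFP with a virus that expresses a fluorescent protein, both at a multiplicity of infection of 200 for 24 h in 5% serum and then kept serum-free for 24 h. Cells of the group ICG-001 received 10 µM of this small molecule, which blocks the interaction of β-catenin with the coactivator CBP, for 24 h without serum, and its control cells received vehicle. Cells of the group FJ9 received 200 µM of this small molecule, which disrupts the binding of Frizzled to Dishevelled, for 24 h without serum, and its control cells received a vehicle of their own. Every array held RNA pooled from 3 to 4 rats, so an array averages over animals and no group has a replicate. All cells were activated by culture, and the labels do not say what the vehicles were.

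Glycolysis turns glucose into pyruvate in the cytosol, and lactate dehydrogenase turns pyruvate into lactate, which leaves the cell through monocarboxylate transporters. When oxygen is low, prolyl hydroxylases of the EGLN family stop marking the transcription factor subunit HIF-1α for destruction, and HIF-1 then switches on many glycolytic genes together with genes of angiogenesis, mitophagy and collagen hydroxylation. Stellate cells are known to take up more glucose and to make more lactate as they turn into myofibroblasts.

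Values are log2 expression levels, and a difference is the level on the treated array minus that on its own control array. A difference of at least 1.5-fold (0.585 on the log2 scale) is called past the threshold. With 1 array on each side a single treatment has no test and no p-value. The difference between the vehicle arrays (that of FJ9 minus that of ICG-001) shows how far the vehicle-treated pools lay apart. The vehicles may themselves have differed, which cannot be told apart from the spread between pools. The SD of that difference over named genes was 0.37, against 0.69 for Ad.DKK-1, 0.56 for ICG-001 and 0.58 for FJ9. A single test was possible, limma over the 3 treated and 3 control arrays with the pair as a block. It tests the mean difference over 3 different agents and says nothing about any agent alone. "Rose" and "fell" are used below only of genes with a Benjamini-Hochberg adjusted p under 0.05 in that test.

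The cultures read as stellate cells. All 14 measured stellate and myofibroblast markers lay above the lowest 30% of genes in mean level, among them Col1a1 at 12.6 to 13.0 and Pdgfrb at 11.9 to 12.6. Of the other lists, 1 of 8 hepatocyte, 3 of 10 macrophage, 1 of 3 endothelial and 2 of 3 cholangiocyte markers did so. The macrophage list had a summed log2 level of 56.9, 58.6 and 60.6 on the Ad.DKK-1, ICG-001 and FJ9 arrays, against 67.2, 64.2 and 66.1 on their controls. The stellate list summed to 149.5, 151 and 149 on the same treated arrays, against 162, 159.6 and 159 on their controls. No marker can read 0 on this scale, whose floor lies at 4, and the macrophage marker Adgre1 came closest to it at 4.11 on the ICG-001 array. The hepatocyte, endothelial and cholangiocyte lists likewise summed lower on each treated array than on its control. The part of these lists in the results below was not tested. In a bulk culture fewer cells of a type and less RNA per cell cannot be told apart.

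Most members read lower on the treated arrays: 26 of 35 had a negative difference with Ad.DKK-1, 27 with ICG-001 and 21 with FJ9. Of all named genes, 55.5%, 55.6% and 48.3% had one. Between the vehicle arrays (that of FJ9 minus that of ICG-001) 21 of 35 members had one too, against 52.4% of all genes. The FJ9 count was thus no larger than that between the vehicle arrays. Over the 3 pairs, 6 members fell, 1 rose and the other 28 did not pass the limma test; of all 14322 genes, 3.89% fell and 2.55% rose. The 6 that fell were the lactate exporter Slc16a3 and 5 glycolytic enzymes, Gpi, Pfkl, Pfkm, Aldoc and Tpi1, and the gene that rose was Slc16a1, another monocarboxylate transporter. None of the 12 hypoxia-induced and oxygen-sensing genes passed the test in either direction. Of all genes 6.44% passed it, a share at which few calls would be expected among 12. Slc16a3, counted here with the transporters, is also a known hypoxia-induced gene. Of 36 other hypoxia genes, given further below, 2 rose and 4 fell (5.56% and 11.1%). The calls of Gpi, Pfkl and Tpi1 were lost after median centring of the arrays or without a trend in limma, which left 4 called members. At an unadjusted p under 0.05 there were 13 members of 35, against 20.6% of all genes. The 3 treated arrays all read below the 3 control arrays for 11 members (11.9% of all genes did so) and all above for 4 (10.5% of all genes).

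**Figure D1:**
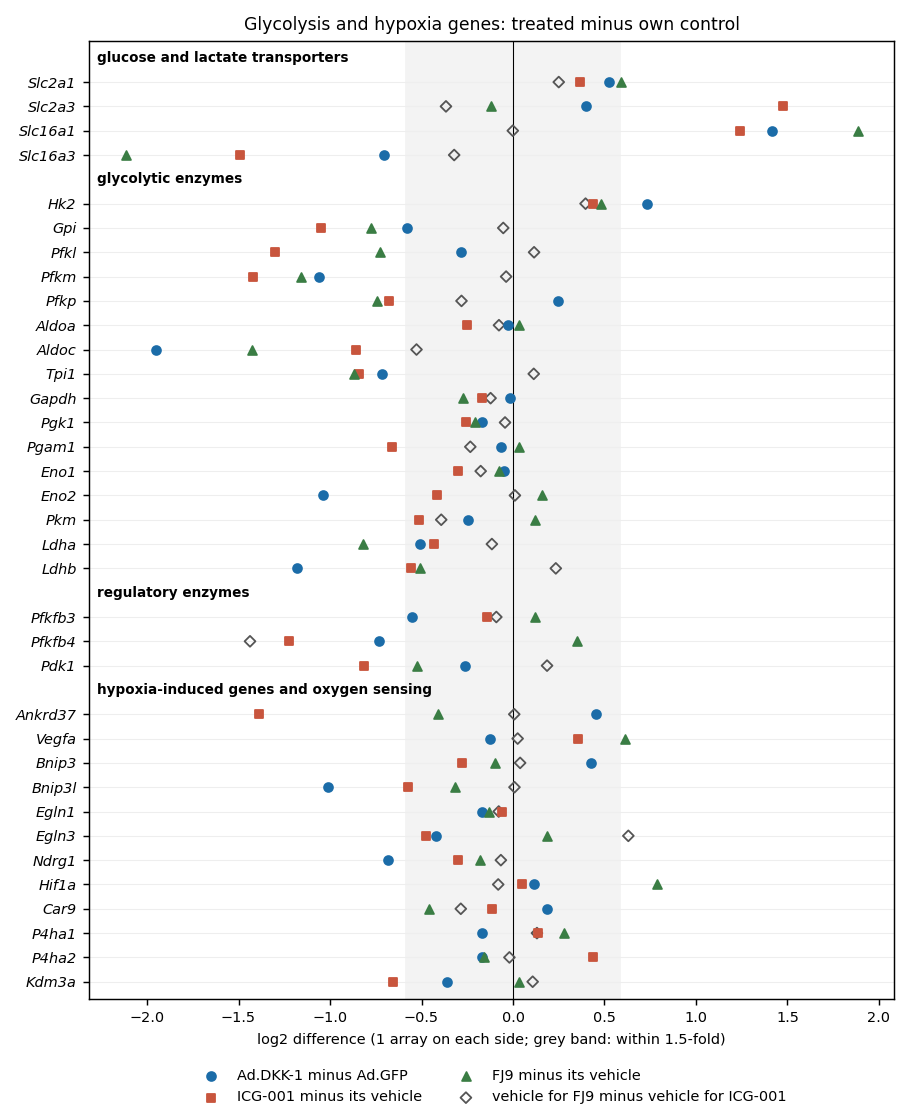
Log2 difference of each of the 35 members, by role, for Ad.DKK-1 minus Ad.GFP (circles), ICG-001 minus its vehicle (squares), FJ9 minus its vehicle (triangles) and the vehicle array of FJ9 minus that of ICG-001 (open diamonds); each symbol is 1 array minus 1 array and the grey band marks differences within 1.5-fold. Slc16a1 lies to the right and Slc16a3, Pfkm, Aldoc and Tpi1 lie to the left of the band in all 3 treatments, while 6 of the 12 hypoxia genes stay inside it in all 3.

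Of the lactate transporters, Slc16a1 rose and Slc16a3 fell. Slc16a1 encodes MCT1, which carries lactate in or out of the cell along its gradient. It read 10.67 with Ad.DKK-1, 10.55 with ICG-001 and 11.20 with FJ9, against 9.26 with Ad.GFP, 9.31 with the vehicle of ICG-001 and 9.31 with the vehicle of FJ9. The 3 controls lay within 0.06 of each other, and all 3 treated arrays read higher. The level was thus 2.67-fold higher with Ad.DKK-1, 2.36-fold higher with ICG-001 and 3.69-fold higher with FJ9. Over the 3 pairs Slc16a1 rose by 1.51 ± 0.20 (SE) on the log2 scale, with a limma adjusted p of 0.0001148.

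Slc16a3 encodes MCT4, a lactate exporter of strongly glycolytic cells and a known hypoxia-induced gene. It read 10.83 with Ad.DKK-1, 10.05 with ICG-001 and 9.11 with FJ9, against 11.54, 11.55 and 11.22 with their controls in that order. Every treated array read below every control, least so with Ad.DKK-1. Its differences were −0.70, −1.49 and −2.12, which makes the level 1.63-fold, 2.81-fold and 4.34-fold lower. The fall over the 3 pairs was −1.44 ± 0.23 (SE; limma adjusted p = 0.0006034). As far down lay 17.6% of named genes with Ad.DKK-1, 1.01% with ICG-001 and 0.635% with FJ9. The gap between the differences of Slc16a1 and Slc16a3 was 2.12 with Ad.DKK-1, 2.73 with ICG-001 and 4.00 with FJ9, against 0.32 between the vehicle arrays.

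Neither glucose transporter passed the limma test. Slc2a3, which encodes the high-affinity transporter GLUT3, read 7.62 with Ad.DKK-1, 9.06 with ICG-001 and 7.10 with FJ9, against 7.22, 7.59 and 7.22 with their controls. Its level stood out on the ICG-001 array, 1.47 above its own vehicle and 1.84 above the other vehicle, while the other 5 arrays lay between 7.10 and 7.62. With ICG-001, 0.503% of named genes lay as far up. Slc2a1, which encodes the widespread transporter GLUT1, read 11.02, 10.66 and 11.13 with Ad.DKK-1, ICG-001 and FJ9, against 10.50, 10.29 and 10.54 with their controls. All treated arrays lay above all controls, by 0.52, 0.37 and 0.59 over their own, while the vehicle arrays differed by 0.25 (limma adjusted p = 0.1341).

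**Figure D2:**
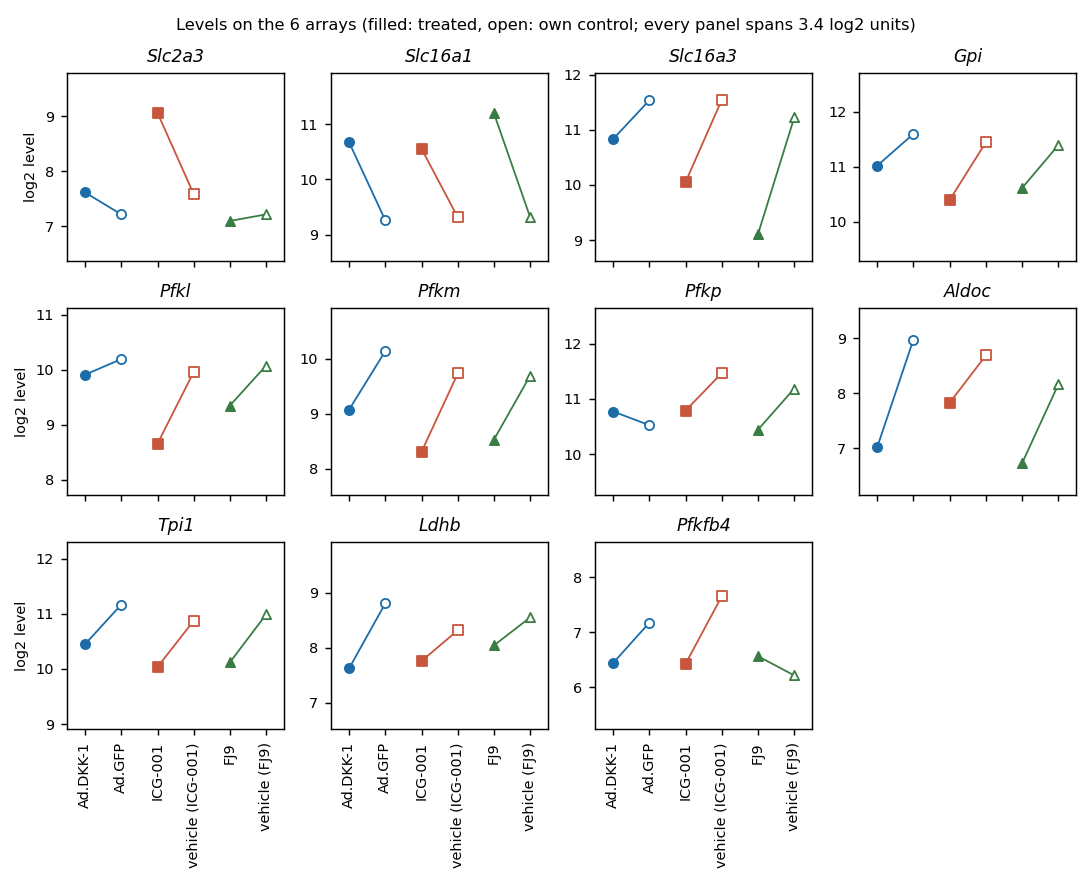
Log2 level on each of the 6 arrays for the 11 members shown in full; filled symbols are treated arrays, open symbols their own controls, a line joins each pair, and every panel spans the same number of log2 units. Slc16a1 is high on the 3 treated arrays, Slc16a3, Gpi, Pfkl, Pfkm, Aldoc, Tpi1 and Ldhb are low on them, and Pfkfb4 differs most between the vehicle arrays.

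Glycolytic enzymes formed the largest group. Of the 16 measured, 5 fell over the 3 pairs, none rose, and 10 had a negative difference in every treatment, as did 22.9% of all genes. The 5 act on the way from glucose to triose phosphate. Of 8 enzymes of that stage 5 fell, and of 8 enzymes from triose phosphate to lactate none did, a division made after the values were seen. Of all genes 3.89% fell. In each stage 5 of the 8 enzymes had a negative difference in every treatment. Of the 5 that fell, only Pfkm and Aldoc stayed called with median centring or without a trend in limma. Ldha and Ldhb of the later stage lay just outside the call (limma adjusted p = 0.06681 and 0.0775). With the mean of all probe sets Ldha passed the test (limma adjusted p = 0.0274), so the split depends on the probe set chosen. The difference between the stages was not tested. Gapdh, Eno1, Pkm and Ldha of the later stage, and the hypoxia gene P4ha1, had mean levels of 12.2 to 13.2, near the array maxima of 13.5 to 13.8, and whether the scale is compressed there was not tested.

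Hk2, the inducible hexokinase that traps glucose by phosphorylation, was the only enzyme above its control in all 3 treatments. It read 9.16, 9.19 and 9.63 with Ad.DKK-1, ICG-001 and FJ9, against 8.43, 8.76 and 9.15 with their controls. Its differences were 0.73, 0.44 and 0.48, and with the other vehicle they were 0.04 for ICG-001 and 0.88 for FJ9. Its difference between the vehicle arrays was 0.40, and its limma adjusted p was 0.1381. Gpi, which turns glucose 6-phosphate into fructose 6-phosphate, read 11.02, 10.40 and 10.61 with Ad.DKK-1, ICG-001 and FJ9, against 11.60, 11.44 and 11.39 with their controls. All 3 treated arrays lay below the controls, which spanned 0.21. Gpi fell by 0.80 ± 0.19 (SE; limma adjusted p = 0.01369), a call that was also lost without the ICG-001 pair (limma adjusted p = 0.09199).

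Phosphofructokinase makes the committed step of glycolysis, and its muscle, liver and platelet type subunits come from Pfkm, Pfkl and Pfkp. Pfkm read 9.07 with Ad.DKK-1, 8.31 with ICG-001 and 8.53 with FJ9, against 10.14, 9.73 and 9.69 with their controls. It was 2.09-fold, 2.67-fold and 2.24-fold lower in those treatments and differed by only −0.04 between the vehicle arrays. The fall over the pairs was −1.21 ± 0.21 (SE; limma adjusted p = 0.001215). Pfkl read 9.91, 8.66 and 9.35 on the treated arrays, against 10.19, 9.96 and 10.07 on their controls. It was lowest on the ICG-001 array, with differences of −0.28, −1.30 and −0.73 and a limma adjusted p of 0.04075. That call held in 3 of 11 alternative settings, and was lost without the ICG-001 pair or without the FJ9 pair (limma adjusted p = 0.3 and 0.08356). Pfkp read 10.77, 10.79 and 10.44 on the treated arrays, against 10.52, 11.47 and 11.19 on their controls. Its level was higher with Ad.DKK-1 by 0.25 and lower with the compounds by 0.68 and 0.74. Against the other vehicle its differences were −0.40 with ICG-001 and −1.03 with FJ9, and the Ad.GFP array itself read 0.95 and 0.66 below the vehicle arrays of ICG-001 and FJ9.

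Aldolase splits the 6-carbon sugar, and the genes of its isoforms Aldoc and Aldoa gave different values here. Aldoc, the brain-type isoform, read 7.02, 7.83 and 6.73 with Ad.DKK-1, ICG-001 and FJ9, against 8.97, 8.68 and 8.16 with their controls. All treated arrays lay below all controls, although the controls themselves spanned 0.82. Aldoc was 3.87-fold, 1.81-fold and 2.69-fold lower, and its fall over the pairs was −1.41 ± 0.27 (SE; limma adjusted p = 0.002552). Against the other vehicle, its difference with ICG-001 was −0.33 and no longer past 1.5-fold. Aldoa, the ubiquitous isoform, differed by −0.03, −0.25 and 0.03, and read between 11.58 and 11.99 on all arrays. Tpi1, which interconverts the triose phosphates, read 10.45, 10.03 and 10.12 on the treated arrays, against 11.17, 10.88 and 10.99 on their controls. Its differences of −0.72, −0.84 and −0.87 were alike in size, and it fell by 0.81 ± 0.19 (SE; limma adjusted p = 0.01234), a call lost without the FJ9 pair (limma adjusted p = 0.06092).

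No enzyme of the later stage passed the test. Gapdh, which oxidises glyceraldehyde 3-phosphate, differed by −0.01, −0.17 and −0.27. It had 16 probe sets, all of them with negative differences in all 3 treatments, down to −0.57 with FJ9. Pgk1 (−0.17, −0.26 and −0.21) and Pgam1 (−0.06, −0.66 and 0.03), which make ATP and move a phosphate, were past 1.5-fold once between them, Pgam1 with ICG-001. Eno1, the main enolase, differed by −0.05, −0.30 and −0.08, and the neuronal isoform Eno2 by −1.04, −0.41 and 0.16. Eno2 read 10.47 with Ad.DKK-1 against 10.93 to 11.51 on the other arrays. Pkm, which encodes the pyruvate kinases M1 and M2, differed by −0.25, −0.52 and 0.12, and its 3 probe sets gave the same signs. The vehicle arrays differed by −0.39, and with the other vehicle the differences were −0.12 for ICG-001 and −0.27 for FJ9, the sign of FJ9 being turned. The probe sets do not tell the M1 and M2 transcripts apart as they are annotated. Many of these genes have processed pseudogenes, so signal may be shared with copies.

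Lactate dehydrogenase subunits read lower on every treated array. Ldhb, the heart-type subunit, read 7.63, 7.76 and 8.04 with Ad.DKK-1, ICG-001 and FJ9, against 8.81, 8.32 and 8.55 with their controls. The difference was −1.18 with Ad.DKK-1 and within 1.5-fold with ICG-001 (−0.56) and FJ9 (−0.51). Ldha, the muscle-type subunit that favours lactate formation, read 12.13, 12.09 and 11.59 on the treated arrays, against 12.64, 12.52 and 12.41 on their controls. Both subunits were thus lower on all treated arrays than on all controls. Ldha differed by −0.51, −0.43 and −0.82. The 2 probe sets of Ldha had the same signs, and the one not chosen gave −0.86, −0.67 and −0.98, past 1.5-fold in every treatment. The limma adjusted p was 0.06681 for Ldha and 0.0775 for Ldhb, so neither call was made. With the mean of all probe sets Ldha passed the test (limma adjusted p = 0.0274).

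Of the regulatory enzymes none passed the test. Pfkfb4, a bifunctional enzyme that sets fructose 2,6-bisphosphate, read 6.44, 6.43 and 6.57 with Ad.DKK-1, ICG-001 and FJ9, against 7.18, 7.66 and 6.22 with their controls. The vehicle arrays differed by −1.44, more than any treatment from its control, and both signs depended on the vehicle. With the other vehicle the ICG-001 difference of −1.23 became 0.21, and the FJ9 difference of 0.35 became −1.09. Pfkfb3, its more widely induced relative, differed by −0.55, −0.14 and 0.12. Pdk1, which restrains entry of pyruvate into mitochondria by phosphorylating pyruvate dehydrogenase, differed by −0.26, −0.81 and −0.52 (limma adjusted p = 0.1748).

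**Figure D3:**
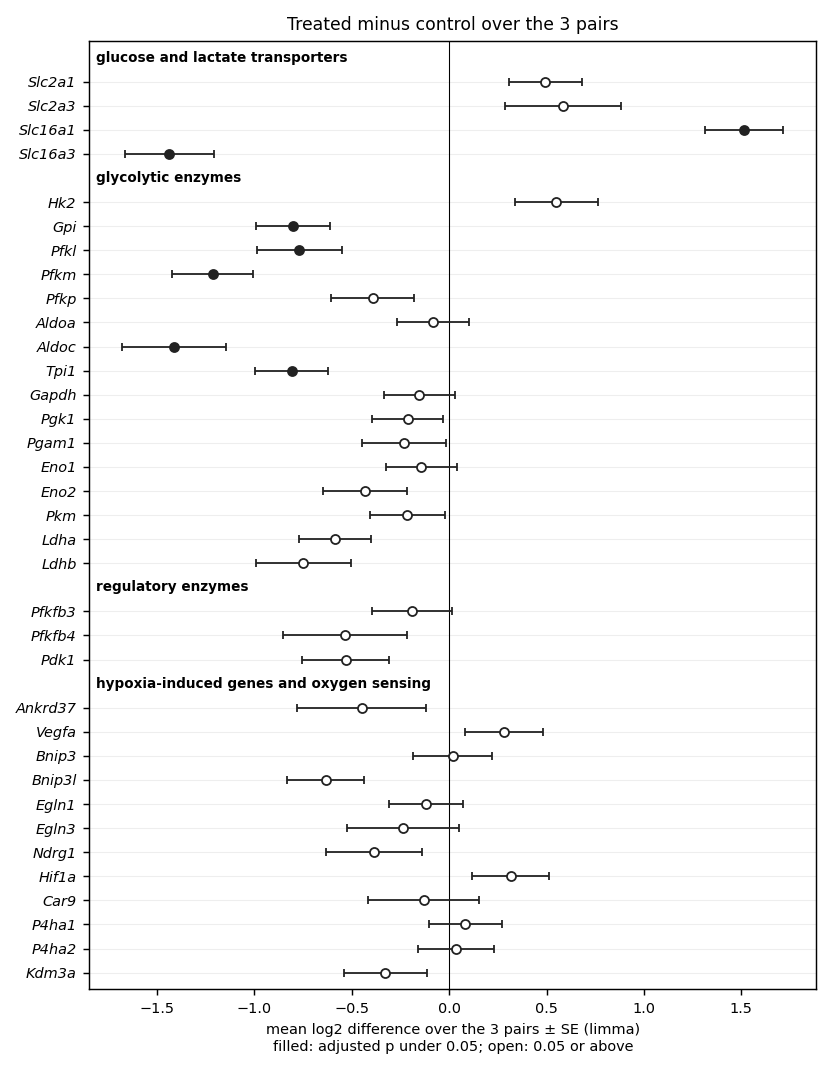
Mean log2 difference, treated minus control, over the 3 pairs for each of the 35 members, with bars of 1 SE from limma; filled circles have an adjusted p under 0.05. The 7 filled circles are Slc16a1 to the right and Slc16a3, Gpi, Pfkl, Pfkm, Aldoc and Tpi1 to the left, and no filled circle stands among the hypoxia genes.

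Among the hypoxia-induced and oxygen-sensing genes, 6 of 12 stayed within 1.5-fold of their control in all 3 treatments, near the 39.5% of all genes that did so. Hif1a, the gene of HIF-1α, differed by 0.11, 0.05 and 0.79, and read 11.89 with FJ9 against 11.11 to 11.31 on the other 5 arrays. HIF-1α is controlled mainly through protein stability, which arrays do not measure. Vegfa, the angiogenic growth factor, differed by −0.13, 0.35 and 0.61. Egln1, the main oxygen sensor that hydroxylates HIF-1α, differed by −0.17, −0.06 and −0.13. Its other probe set disagreed in sign with Ad.DKK-1 (0.17) and read −0.52 and −0.49 with the compounds. Egln3, the hypoxia-induced sensor, differed by −0.42, −0.48 and 0.19, and by 0.63 between the vehicle arrays. It counts as within 1.5-fold throughout, but with the other vehicle it was past it in opposite directions, at −1.11 with ICG-001 and 0.82 with FJ9.

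Ankrd37, a small ankyrin repeat gene and a direct HIF-1 target, had the largest difference among the hypoxia genes. It read 7.46, 5.32 and 6.30 with Ad.DKK-1, ICG-001 and FJ9, against 7.01, 6.71 and 6.71 with their controls. It differed by −1.39 with ICG-001, where 1.21% of named genes lay as far down, but by 0.45 with Ad.DKK-1 and −0.41 with FJ9. The ICG-001 difference was −1.39 against the other vehicle too. Ankrd37 had a low mean level of 6.59, and the lowest 30% of genes had mean levels below 6.39. Its ICG-001 and FJ9 readings lay under that value. Bnip3l and Bnip3, receptors of mitophagy, differed by −1.01 and 0.43 with Ad.DKK-1, −0.57 and −0.28 with ICG-001, and −0.32 and −0.10 with FJ9. Bnip3l read 10.25, 10.49 and 10.75 on the treated arrays, all below the controls at 11.26, 11.06 and 11.07, and had a limma adjusted p of 0.06197. Ndrg1, a stress-responsive gene, differed by −0.69, −0.30 and −0.18, and Kdm3a, a histone demethylase that HIF-1 induces, by −0.36, −0.66 and 0.03. Car9, the cell surface carbonic anhydrase often used as a hypoxia marker, differed by 0.19, −0.12 and −0.46. The collagen prolyl hydroxylase subunits P4ha1 (−0.17, 0.14 and 0.28) and P4ha2 (−0.17, 0.44 and −0.16) stayed within 1.5-fold in every treatment.

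The comparison of Ad.DKK-1 with Ad.GFP asks what DKK-1 changes. Here 2 members were past 1.5-fold upward, 5.71% of the 35 against 14.5% of all named genes, and 9 downward, 25.7% against 22.6% of all. The share downward was thus near that of all genes. The median difference of the members was −0.17, and that of all genes −0.09. Centring each array on its median moves these to −0.08 and 0.00. The members past the threshold upward were Slc16a1 and Hk2. Downward they were Aldoc, Ldhb, Pfkm, Eno2, Bnip3l, Pfkfb4, Tpi1, Slc16a3 and Ndrg1. The hypoxia genes Bnip3l and Ndrg1 were among them. Just past the threshold stood Ndrg1 (−0.69) and Slc16a3 (−0.70), and just within it Gpi (−0.58) and Pfkfb3 (−0.55). Pfkfb4 (−0.73) came within the threshold when the arrays were quantile normalized again (−0.56) or scaled by cyclic loess (−0.57).

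For ICG-001, which asks what the link of β-catenin to CBP contributes, 2 members were past 1.5-fold upward, Slc2a3 and Slc16a1 (5.71%, against 10.3% of all genes). Another 12 were past it downward, 34.3% of the members against 16.3% of all genes. The median was −0.41, against −0.08 over all genes. After each array was centred on its median, 4 members were up and 9 down (18.3% of all genes up and 9.4% down), and the medians were −0.24 for the members and 0.09 for all genes. The 12 were Slc16a3, Pfkm, Ankrd37, Pfkl, Pfkfb4, Gpi, Aldoc, Tpi1, Pdk1, Pfkp, Pgam1 and Kdm3a. With the vehicle of FJ9 as control, 2 were up (11.3% of all genes) and 10 down (12.9% of all genes), and the median was −0.23. Nearest the threshold were Kdm3a (−0.66) and Pgam1 (−0.66) past it, and Bnip3l (−0.57) and Ldhb (−0.56) within it.

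FJ9, which asks what the link of Frizzled to Dishevelled contributes, put 4 members past 1.5-fold upward (11.4%, against 10.6% of all genes) and 8 downward (22.9%, against 12.3% of all). The 4 were Slc16a1, Hif1a, Vegfa and Slc2a1, and the 8 were Slc16a3, Aldoc, Pfkm, Tpi1, Ldha, Gpi, Pfkp and Pfkl. The median was −0.13, against 0.02 over all genes. With the vehicle of ICG-001 as control, 6 were up (12.8% of all genes) and 10 down (16.6% of all), and the median was −0.25. Slc2a1 (0.59) and Vegfa (0.61) stood just past the threshold, Pdk1 (−0.52) and Ldhb (−0.51) just within it.

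**Figure D4:**
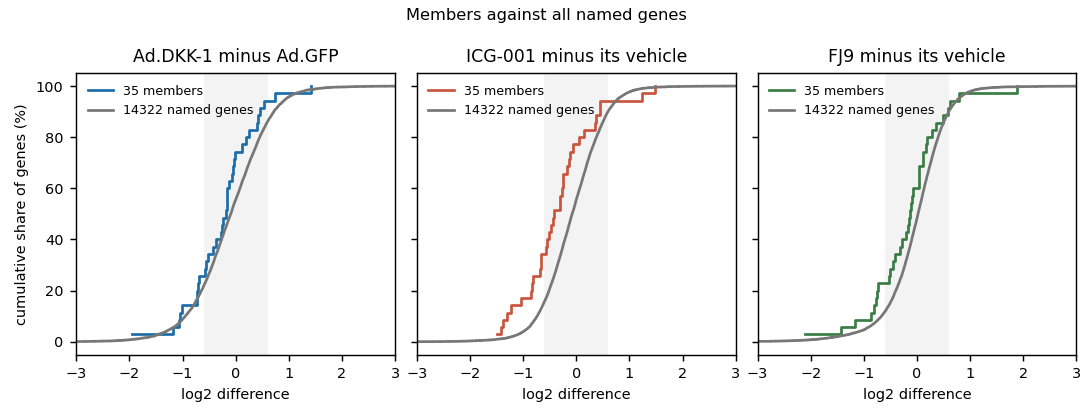
Cumulative share of genes (percent) against the log2 difference, for the 35 members (coloured step line) and all 14322 named genes (grey) in each treatment; the grey band marks differences within 1.5-fold and the axis ends at 3 on either side. The members' line runs left of the grey line over most of its course with ICG-001, where the medians are −0.41 and −0.08, and the medians are −0.17 and −0.09 with Ad.DKK-1.

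The 3 comparisons share no array. Between them, 4 members were past 1.5-fold downward in all 3 treatments, Slc16a3, Pfkm, Aldoc and Tpi1, as were 2.62% of all genes, and 1 upward, Slc16a1, as were 1.79% of all. In at least 2 treatments 8 were past it downward (11.1% of all genes) and 1 upward (6.61% of all). None was past 1.5-fold in opposite directions in 2 treatments, against 4.01% of all genes. Another 12 members, 34.3%, stayed within 1.5-fold throughout, against 39.5% of all genes. Between the vehicle arrays 1 member was past 1.5-fold upward (2.86% of all genes) and 1 downward (7.84% of all genes), Egln3 and Pfkfb4.

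The control groups could be set against each other too. Ad.GFP minus the vehicle of ICG-001 gave no member upward and 2 downward (6.07% and 16.1% of all genes), and minus the vehicle of FJ9 it gave 2 upward and 3 downward (7.79% and 10.7% of all genes). Pfkp and Car9 were downward in both, at −0.95 and −0.88 against the first vehicle and −0.66 and −0.59 against the second. Virus, serum during treatment and length of treatment differ between these groups and cannot be told apart.

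Other genes of the same pathways were followed from lists drawn up with earlier results of these data known. Of 45 measured genes of sugar and pyruvate metabolism, none passed the limma test in either direction, while 8 had an unadjusted p under 0.05 (17.8%, against 20.6% of all genes). Txnip, which restrains glucose uptake, read 7.29 with FJ9 against 8.97 to 10.10 on the other arrays, a difference of −2.68, while the vehicle arrays differed by 1.00. Slc16a7, another monocarboxylate transporter of low mean level, differed by 1.67 with Ad.DKK-1, −1.26 with FJ9 and 1.21 between the vehicle arrays. Of 36 measured genes of hypoxia response and HIF regulation, 2 rose and 4 fell (5.56% and 11.1%, against 2.55% and 3.89% of all genes), and 16 had an unadjusted p under 0.05 (44.4%). Those that rose were Cited2, which competes with HIF-1α for its coactivators (1.04 ± 0.18 SE; limma adjusted p = 0.001619), and the mitochondrial chaperone Hspa9 (1.01 ± 0.19 SE; limma adjusted p = 0.002804).

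Those that fell were the VEGF receptor Flt1 (−1.47 ± 0.21 SE; limma adjusted p = 0.0001911), the mitochondrial adenylate kinase Ak4 (−1.45 ± 0.29 SE; limma adjusted p = 0.003808), Epas1, the gene of HIF-2α (−0.71 ± 0.18 SE; limma adjusted p = 0.02511), and the HIF partner Arnt2 (−1.06 ± 0.30 SE; limma adjusted p = 0.03918). Cited2, Hspa9, Epas1 and Arnt2 are named because they passed the test, a choice made after their values were seen. Arnt2 lay in the lowest 30% of genes in mean level. Large differences in single treatments without a call were those of the cyclin Ccng2 (−1.76 with Ad.DKK-1), the transferrin receptor Tfrc (−1.50 with ICG-001) and Angptl4, a secreted inhibitor of lipoprotein lipase (2.64 with FJ9, 1.01 between the vehicle arrays, low mean level). Edn1, the endothelin gene, differed by 1.62 and 1.40 with Ad.DKK-1 and ICG-001 but by −1.72 with FJ9.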

How the data were processed

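The deposited table holds log2 expression values of 26988 probe sets on 6 arrays, which the authors made with RMA; the submitters' processing notes name Affymetrix Expression Console, without a version. RMA corrects background, normalizes between arrays and summarises probes on the log2 scale. No further normalization was applied to these deposited values. Array medians ran from 7.01 to 7.28, and centring on them shifts every ICG-001 difference by 0.17. Precision is limited by having 6 arrays.

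Probe sets were named from the platform annotation (15092 with 1 symbol, 323 with several, 11573 not listed), and 15062 matched RefSeq genes of the assembly GRCr8, used for names only. All 14322 named genes were kept, with no level filter, and all 35 members would pass a filter on the lowest 30%. Genes at least 1.5-fold from the control were counted per treatment. limma 3.58.1 (R 4.3.3; two-sided; lmFit and trended eBayes; Benjamini-Hochberg adjustment over all named genes) tested treated against control over the 3 pairs, each pair being a block, with 2 residual degrees of freedom a gene and 17.0 more from the spread pooled over genes. The fit was tested on simulated data.

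The members and lists were chosen with earlier results of these data known. Every member is named. All 6 levels are given for members past 1.5-fold the same way in 2 treatments, the 3 largest differences of each treatment and any past it in opposite directions. Outside that rule, all 6 levels of Slc2a1, Hk2, Ldha, Ankrd37 and Bnip3l are given as well. Of other pathway genes the 4 largest differences of each treatment are named. Alternatives were other scalings, a level filter, averaged probe sets, a 2-fold threshold, the other vehicle, other limma settings and leaving out each pair.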

Additional observations from a re-analysis of the deposited data

How the results depend on the processing

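With 1 pooled array per group, no difference of a single treatment has a replicate check. With a 2-fold threshold, 1 member was higher and 5 lower under Ad.DKK-1 (4.25% and 8.8% of all genes). Under ICG-001 2 were higher and 6 lower (2.32% and 3.97%), and under FJ9 1 was higher and 3 lower (2.12% and 4.66%). A stricter threshold can only lower a count or leave it, and the 2 higher under ICG-001 were unchanged. Median centring gave 4 members higher under ICG-001, and moved the members' median to −0.08 under Ad.DKK-1 and −0.24 under ICG-001. Changing to the other vehicle shifts a member by exactly its own difference between the vehicle arrays. The moves below restate that difference, under both compounds for each member, and are no separate check. With the other vehicle, 10 differences of single members moved by more than the SD between vehicle arrays, under ICG-001 and FJ9: those of Pfkfb4 (to 0.21 and −1.09, both with the sign turned), Pkm (to −0.12 and, with the sign turned, −0.27), Hk2 (to 0.04 and 0.88), Aldoc (to −0.33 and −1.96) and Egln3 (to −1.11 and 0.82). The limma count of 7 members became 4 with median centring and 4 without a trend; leaving out each pair gave 5 to 7, and swapping the vehicle arrays, chosen after seeing the data, gave 6. For both counts of 4 the cause was not tested. Slc16a1, Slc16a3, Pfkm and Aldoc were called in all 11 alternatives. Gpi and Tpi1 were called in 8 each and missed with median centring and without a trend; Gpi was also lost without the ICG-001 pair and Tpi1 without the FJ9 pair. The share of all genes called was 6.44%, but 3.75% with median centring, 3.11% without a trend and 3.1% with no pair block, where 6 members were called. With the lowest 30% of genes left out the share rose to 8.58%, with 7 members called. In all, 43 of the alternative counts stayed within 1.5 times of the reported ones. At that limit were 3: 3 members higher under Ad.DKK-1 with median centring or cyclic loess, and 6 higher under FJ9 with the other vehicle.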
